A study of Arabidopsis thaliana with 8 samples.

Results

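The aha1 mutant of Arabidopsis thaliana was compared with wild type in whole seedlings, with the members taken from the genotype labels: 3 arrays of the aha1 mutant and 2 of wild type, which are 5 of the 8 arrays measured. All plants were of the Col background, 5 days old, grown vertically in the light on Murashige and Skoog medium at reduced strength, and total RNA was hybridised to 1 single-colour Affymetrix array per sample. The aha1 mutant was represented by allele aha1-6 on 2 arrays and by allele aha1-7 on 1 array. The other 3 arrays were of the aha2 mutant, 2 of allele aha2-4 and 1 of allele aha2-5, and they entered here to estimate the spread and to show where aha1 differed from another pump mutant. Replicate 1 of each group formed a first set of 3 arrays and the remaining 5 formed a second set, according to a string shared in the sample descriptions.

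AHA1 and AHA2 encode plasma membrane proton pumps, P-type ATPases that export protons by hydrolysing ATP. The proton gradient they build drives the uptake of nutrients through coupled carriers, and the acid wall it creates favours wall loosening by expansins during cell growth. AHA1 and AHA2 are the most strongly expressed members of the family in vegetative tissue, and loss of either one alone is known to be tolerated, since the pumps overlap in function. None of the 11 genes on the list of plasma membrane pumps (0 of 11) could be matched to a probe set by name, so the loss of AHA1 transcript was not checked and each array's genotype is taken from its label.

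Of 22746 probe sets tested, the brighter 50% by mean level over all arrays were described, which are 11373 probe sets with 5890 named genes. Levels are quantile normalized log2 intensities, and a log2 difference of 1 is a 2-fold difference. Array medians before normalization ran from 358.1 to 410.2 signal units. The aha1-7 array stood apart, with 1201 brighter probe sets beyond 2-fold of the other arrays' mean against 22 to 53 on each of the remaining 7, so fitted differences from wild type are also given for aha1-6 alone. PYK10, a root beta-glucosidase and the one brighter root marker, was at 15.03 and 14.93 in wild type and at 14.84, 15.02 and 15.15 on the aha1 arrays. No marker of shoot, guard cell, vascular, epidermal, residual seed or pollen origin had a named probe set among the brighter ones, and the labelled tissue was otherwise not checked. In whole seedlings, fewer cells of a type and less RNA per cell cannot be told apart.

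The first comparison set all 3 aha1 arrays against wild type and asked which transcripts differ when the AHA1 pump is mutated. With both alleles together, no brighter probe set passed an adjusted p of 0.05 (limma, 0 of 11373, 0%), while 580 had an unadjusted p under 0.05 (5.1%), 297 higher (2.61%) and 283 lower (2.49%) in aha1. By the sign of the fitted value alone, 49.7% were higher and 50.3% lower. All 3 aha1 arrays lay above both wild type arrays at 1135 probe sets (9.98%) and below both at 1016 (8.93%). Arrays in random order would give shares near these, so lack of overlap at a single gene says little by itself. Among named genes, the largest differences at an unadjusted p under 0.01 and in a common direction were those of the methionine aminotransferase gene BCAT4 on the lower side and AT1G26380 and AT5G62280 on the higher side, as described below. When limma was allowed to estimate a weight for each array from the same values, aha1-7 received a weight of 0.1127 against 0.778 to 1.96 for the others, and 198 probe sets passed (1.74%), 107 higher and 91 lower.

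The second comparison set aha1-6 alone against wild type, with the aha1-7 array left out. Of 11373 probe sets, 27 passed (limma, 0.237%), 17 of them higher in aha1-6 (0.149%) and 10 lower (0.0879%). The higher ones differed by 1.87- to 3.33-fold and the lower ones by 1.80- to 3.69-fold. At an unadjusted p under 0.05 the count was 1205 (10.6%), with 587 higher (5.16%) and 618 lower (5.43%), and by sign alone 49.6% were higher and 50.4% lower. Only 7 of the 27 have a named gene. The count rested on few arrays: 0 passed (limma) without wild type replicate 1, aha1-6 replicate 1 or aha1-6 replicate 2, with 787, 998 and 536 at an unadjusted p under 0.05. It was 3 without wild type replicate 2, 13 without aha2 replicate 1 and 53 without aha2 replicate 3. All 27 kept their direction when any 1 of these 7 arrays was left out. Since the 27 were chosen on these same arrays, the kept direction gives no separate support.

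The aha1-6 arrays of the 2 sets were hybridised and compared with different wild type arrays, so they can be set against each other. Across the 11373 probe sets the difference in the first set and that in the second had a Pearson correlation of 0.397 and a Spearman correlation of 0.359, a description across probe sets of 2 pairs of arrays. More than 2-fold in both sets were 8 probe sets on the higher side (0.0703%) and 9 on the lower side (0.0791%). Of these 17 probe sets, 15 passed the test, which used the same arrays.

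**Figure D1:**
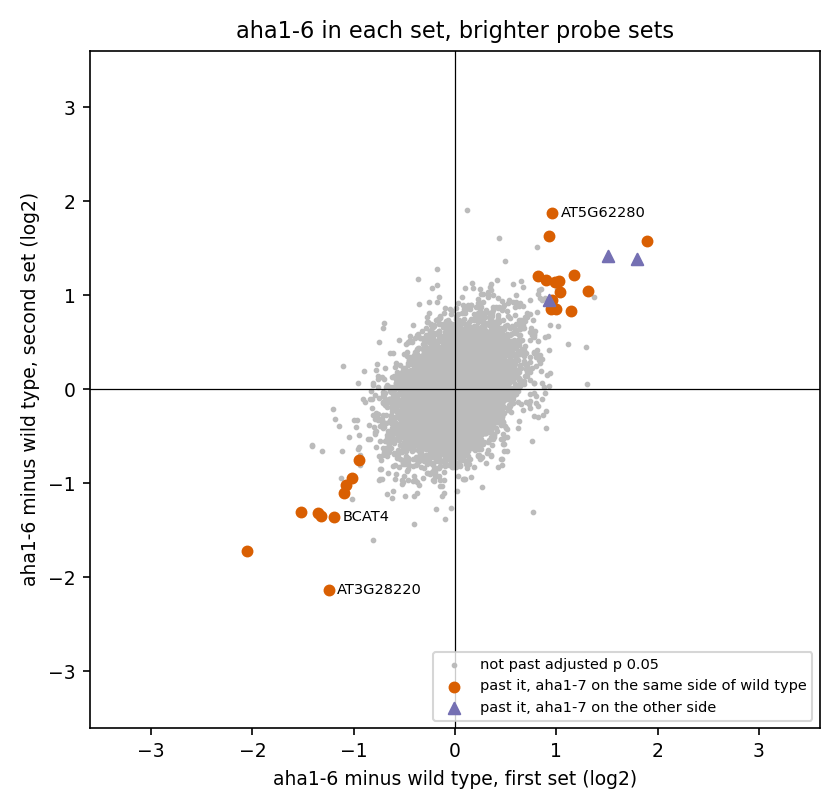
Difference between the aha1-6 array and its wild type array (log2), first set on the horizontal and second set on the vertical axis, for 11373 brighter probe sets. Coloured points are the 27 past an adjusted p of 0.05 for aha1-6 alone; they lie in the lower left and upper right corners, and triangles mark the 3 at which the aha1-7 array, read against the same second wild type array, lay on its other side.

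BCAT4 encodes the aminotransferase that starts the chain elongation of methionine, the entry into aliphatic glucosinolates, which are defence compounds of the cabbage family. It was at 12.45 and 12.34 in wild type, at 11.26 and 10.98 in aha1-6, at 10.66 in aha1-7 and at 11.91 ± 0.08 (SD, n = 3) in aha2. Every aha1 array lay below every wild type and aha2 array. The aha1-6 arrays were 2.42-fold below wild type (log2 difference -1.28, SE 0.15; limma, adjusted p = 0.0032), and all 3 aha1 arrays together gave -1.39 (SE 0.19; adjusted p = 0.12). Leaving out 1 array at a time put the adjusted p for aha1-6 at 0.219 without aha1-6 replicate 2, 0.192 without wild type replicate 2, 0.0953 without aha1-6 replicate 1 and 0.095 without wild type replicate 1. The alleles were not shown to differ at this gene, with aha1-7 a further 0.37 below aha1-6 as a log2 difference of -0.37 (SE 0.19; adjusted p = 0.153).

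Of 29 genes on a list of aliphatic glucosinolate synthesis, 3 had a named probe set among the brighter ones, and all of them had negative fitted differences. GSTU20, a tau-class glutathione S-transferase of this pathway, was at 13.83 and 13.47 in wild type, at 13.20 and 12.84 in aha1-6 and at 12.63 in aha1-7. These groups do not overlap, yet the fitted values did not pass, at -0.72 (SE 0.19; limma, adjusted p = 0.856) with 3 arrays and -0.63 (SE 0.16; adjusted p = 0.214) with aha1-6 alone. AT2G31790, also on the list, had a value of -0.27 with 3 arrays and -0.31 with aha1-6 alone. The list's median was -0.72 with 3 arrays and -0.63 with aha1-6 alone, where all brighter probe sets had a median of -0.0019 and -0.002. With 3 genes, this median is the value of GSTU20, between those of BCAT4 and AT2G31790. Of the list, 1 member, BCAT4, passed for aha1-6. The 4 brighter genes of indole glucosinolates and the ER body had medians of -0.09 and -0.13.

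The other named gene that was lower in aha1-6 was AT3G28220. It was at 9.43 and 8.97 in wild type, at 8.19 and 6.83 in aha1-6, at 8.83 in aha1-7 and at 9.38, 8.64 and 9.34 in aha2. The aha1-6 arrays lay 3.23-fold below wild type (log2 difference -1.69, SE 0.26; limma, adjusted p = 0.0254). The aha1-6 arrays also lay farther from each other than the wild type arrays did. The aha1-7 array was close to its wild type array, and the alleles differed by 1.67 (SE 0.34; adjusted p = 0.00482). With 3 arrays the value was -1.19 (SE 0.48; adjusted p = 0.873). The RefSeq table gives this gene, like the other genes printed here by locus alone, no further name, and no role is stated for AT3G28220. For the others a role is stated only at some members of the gene lists, from what is known of them.

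Among genes higher in aha1-6, AT5G57760 had the smallest p of those named. Its wild type arrays were at 9.33 and 9.30 and its aha1-6 arrays at 10.84 and 10.72, a 2.76-fold difference (log2 difference 1.47, SE 0.15; limma, adjusted p = 0.00209). The aha2 arrays, at 9.36, 9.35 and 9.15, and the aha1-7 array, at 9.03, lay at or just below the wild type level. The alleles differed by -1.71 (SE 0.19; adjusted p = 0.000393), and the 3-array value was 0.95 (SE 0.43; adjusted p = 0.873). The rise at AT5G57760 was thus measured in aha1-6 and not on the aha1-7 array. The gene spans 553 bp, which places it in the shortest 10% of genes. In that group the median allele difference was -0.78 and 61.1% were called lower in aha1-7, as given below. Whether gene length bears on the aha1-7 level of AT5G57760 was not tested.

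AT5G62280 was at 9.16 and 8.28 in wild type, at 10.12 and 10.15 in aha1-6 and at 9.27 in aha1-7. The aha1-6 arrays were 2.67-fold higher (log2 difference 1.42, SE 0.24; limma, adjusted p = 0.0414), and the wild type arrays were far apart. The aha1-7 array was 0.99 above the wild type array of its own set, and the allele difference of -0.59 (SE 0.31) did not pass (adjusted p = 0.169). AT2G39400 was at 8.29 and 8.37 in wild type, 9.27 and 9.51 in aha1-6 and 8.66 in aha1-7, a log2 difference of 1.06 (SE 0.15; adjusted p = 0.0175) for aha1-6. The aha1-7 array was above wild type but lower than aha1-6, by a fitted allele difference of -0.79 (SE 0.19; adjusted p = 0.0122).

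AT5G43450 had nearly the same level on all aha1 arrays. It was at 9.53 and 9.44 in wild type, 10.48 and 10.29 in aha1-6, 10.34 in aha1-7 and between 9.70 and 9.93 in aha2. The aha1-6 difference was 0.90 (SE 0.15; limma, adjusted p = 0.0379) and the 3-array value 0.91 (SE 0.17; adjusted p = 0.502), with an allele difference of 0.02 (SE 0.19). AT2G41730, a member of the core hypoxia list, was at 9.08 and 9.16 in wild type, 10.11 and 10.20 in aha1-6, 9.54 in aha1-7 and 10.13, 10.14 and 9.83 in aha2. Every mutant array was above wild type at AT2G41730, and the aha1-6 difference was 1.04 (SE 0.16; adjusted p = 0.0288). Its probe set is of a type that can bind more than 1 transcript. Of the 6 brighter genes on the hypoxia list, 3 had positive and 3 negative values in aha1-6, with a median of -0.02. With 3 arrays 2 were positive and 4 negative, with a median of -0.39.

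**Figure D2:**
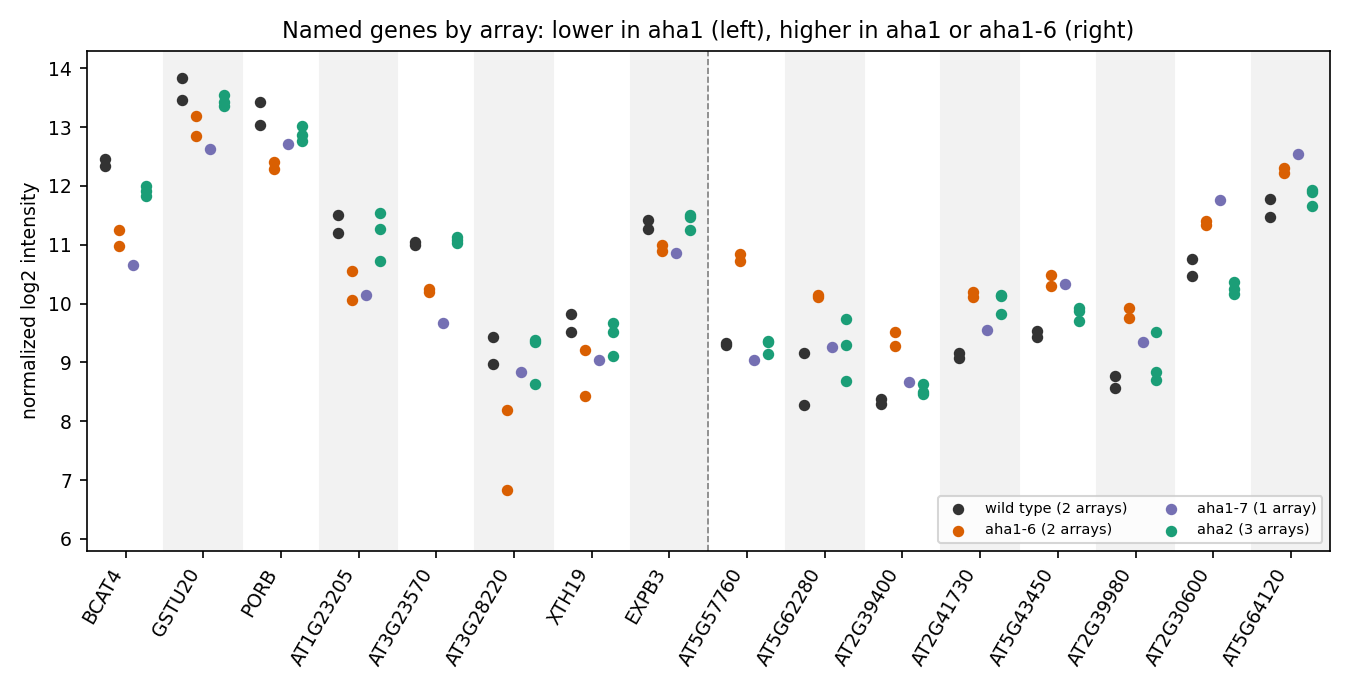
Normalized log2 intensity (vertical axis) of 16 named genes on each of the 8 arrays, with black points for wild type, orange for aha1-6, purple for aha1-7 and green for aha2. BCAT4 lies lower on all 3 aha1 arrays, from 10.66 to 11.26 against 12.34 and 12.45 in wild type, while AT5G57760 stands high only on the aha1-6 arrays, at 10.84 and 10.72.

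Of the probe sets that passed for aha1-6, the 20 without a single named gene held the largest difference on each side, at 254550_at and 263403_at. On the lower side, 254550_at was at 10.09 and 9.48 in wild type, 8.04 and 7.76 in aha1-6, 9.43 in aha1-7 and 10.82, 10.31 and 10.59 in aha2 (aha1-6 log2 difference -1.88, SE 0.16; limma, adjusted p = 0.00118). Also lower was 266939_at, at 13.45 and 13.50 in wild type, 11.94 and 12.19 in aha1-6, 5.95 in aha1-7 and 13.44, 13.43 and 13.63 in aha2. Its aha1-6 arrays were 2.66-fold below wild type (adjusted p = 0.00209), and aha1-7 was a further 72.4-fold below aha1-6 (log2 difference -6.18, SE 0.20; adjusted p = 1.6e-08). All 3 aha1 arrays were thus below wild type and aha2 at 266939_at, and by very different amounts in the alleles. The annotation used gives this probe set no single gene, so whether it measures AHA1 itself was not checked.

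On the higher side, 263403_at was at 8.03 and 8.59 in wild type, 9.92 and 10.17 in aha1-6, 10.32 in aha1-7 and 8.73, 9.09 and 8.72 in aha2. This probe set came closest to passing with 3 arrays, at 1.77 (SE 0.19; limma, adjusted p = 0.0575), and it passed for aha1-6 at 1.73 (SE 0.17; adjusted p = 0.00209). The probe set 258434_at was at 10.80 and 11.23 in wild type, 12.59 and 12.62 in aha1-6 and 11.21 in aha1-7, so that only the aha1-6 arrays stood high (log2 difference 1.59, SE 0.17; adjusted p = 0.00209). The allele difference at 258434_at was -1.45 (SE 0.22; adjusted p = 0.00125).

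Further named genes had all 3 aha1 arrays deviating one way from wild type within the sets and an unadjusted p under 0.01 with 3 arrays, 33 on the higher (0.557% of 5921 named probe sets) and 18 on the lower side (0.304%). Together they are all 51 named probe sets at that p (0.861%), a share below the 1% that p under 0.01 gives where nothing differs. None of them passed over all brighter probe sets, and the 10 largest on each side are given as values. On the lower side after BCAT4, AT1G23205 was at 11.19 and 11.50 in wild type and at 10.07, 10.55 and 10.15 on the aha1 arrays (3-array value -1.11, SE 0.26; aha1-6 alone -1.04, SE 0.24; limma, adjusted p = 0.648 and 0.152). AT3G23570 was at 11.02 ± 0.03 (SD, n = 2) in wild type, 10.25 and 10.20 in aha1-6 and 9.67 in aha1-7, with values of -0.96 (SE 0.21) and -0.80 (SE 0.14; adjusted p = 0.0532). The wild type arrays of AT3G23570 lay closer together than the distance to any aha1 array.

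PORB encodes protochlorophyllide oxidoreductase B, the enzyme of the light-dependent step of chlorophyll synthesis that stays active in green tissue. It was at 13.03 and 13.44 in wild type, 12.41 and 12.28 in aha1-6, 12.71 in aha1-7 and 13.03, 12.87 and 12.77 in aha2. The aha1 arrays lay below wild type without overlap, with a value of -0.78 (SE 0.21; limma, adjusted p = 0.869) for 3 arrays and -0.89 (SE 0.18; adjusted p = 0.0805) for aha1-6. The other lower genes had 3-array values of -1.02 (AT5G38910), -0.81 (AT1G49310), -0.79 (AT1G21440), -0.78 (AT3G18560), -0.76 (AT1G31050) and -0.73 (AT3G27200). With aha1-6 alone the values in the same order were -1.01, -0.82, -0.66, -0.65, -0.74 and -0.65, and none passed (adjusted p from 0.102 to 0.236).

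On the higher side, CYP71B23, a cytochrome P450 gene, was at 8.60 and 7.66 in wild type and at 9.09, 9.02 and 9.36 on the aha1 arrays (3-array value 1.08, SE 0.25; aha1-6 alone 0.93, SE 0.20; limma, adjusted p = 0.628 and 0.117). Its aha2 arrays, at 9.29, 9.14 and 9.05, covered the same range as aha1. AT2G39980 was at 8.56 and 8.77 in wild type, 9.93 and 9.75 in aha1-6 and 9.35 in aha1-7 (3-array value 1.07, SE 0.24; aha1-6 alone 1.18, SE 0.21, adjusted p = 0.0532). AT1G26380, the largest named value of the higher side at 1.29 (SE 0.36), or 1.02 (SE 0.29; adjusted p = 0.248) with aha1-6 alone, had wild type arrays at 7.87 and 7.03, a gap of the same order as the difference itself. AT3G07350, AT2G30600 and AT1G20390 had 3-array values of 0.94, 0.88 and 0.86 and aha1-6 values of 0.93, 0.75 and 0.84, none of which passed. With the estimated array weights, all 20 of these genes passed (limma), with adjusted p from 5.41e-05 for BCAT4 to 0.0322 for AT1G26380. The genes were chosen from the same arrays and the weights, low for aha1-7, came from the same values. Their passing is therefore no separate support.

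Genes of cell wall loosening were read next, because the wall is where the exported protons act. Expansins loosen the wall at acid pH, xyloglucan endotransglucosylase/hydrolases (XTHs) join and split the xyloglucan that tethers cellulose, and GH9 glucanases act on glucan chains. No member of the 3 families passed in either comparison. Of 8 brighter expansins and expansin-like genes, 6 had negative values with 3 arrays (median -0.42) and 7 with aha1-6 alone (median -0.24). At an unadjusted p under 0.05, 3 were lower and none was higher with 3 arrays, where 2.49% of all brighter probe sets were lower by that rule. With aha1-6 alone 3 were lower and 1, EXPA8, was higher, against 5.43% and 5.16% of all brighter probe sets.

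EXLB1, an expansin-like gene, was at 9.08 and 9.61 in wild type, 8.44 and 8.94 in aha1-6 and 9.09 in aha1-7, with a value of -0.63 (SE 0.19) for 3 arrays and -0.66 (SE 0.18) for aha1-6. Within each set the aha1 arrays were below wild type, whereas the groups overlapped across the sets. EXPB3, a beta-expansin, was at 11.27 and 11.43 in wild type and at 10.89, 10.99 and 10.87 on the aha1 arrays, with values of -0.46 (SE 0.17) and -0.41 (SE 0.14). EXPA15, an alpha-expansin, had values of -0.46 (SE 0.20) and -0.37 (SE 0.16), and EXPB1 had -0.49 (SE 0.24) and -0.28 (SE 0.16). EXPA8 went the other way in aha1-6, at 0.41 (SE 0.15), and was chosen after its values were seen.

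Of 5 brighter XTHs, 4 had negative values in both comparisons, with medians of -0.29 for 3 arrays and -0.36 for aha1-6. XTH19 was at 9.82 and 9.51 in wild type, 9.20 and 8.43 in aha1-6, 9.03 in aha1-7 and 9.52, 9.67 and 9.11 in aha2, with values of -0.72 (SE 0.25; limma, adjusted p = 0.873) and -0.85 (SE 0.21; adjusted p = 0.192). It was lower than wild type in each set, while the range of aha2 reached into that of aha1. XTH18 was at 9.42 and 9.13 in wild type and at 8.57, 8.74 and 8.55 on the aha1 arrays, with values of -0.63 and -0.62. XTH16 had values of -0.29 and -0.36, and XTH32 of -0.20 and -0.16. The 4 GH9 glucanases were split evenly, with medians of 0.01 and 0.03. With the estimated array weights XTH19 (adjusted p = 0.012) and EXLB1 (adjusted p = 0.0233) passed, and XTH18, EXPB3, EXPA15 and EXPB1 did not.

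**Figure D3:**
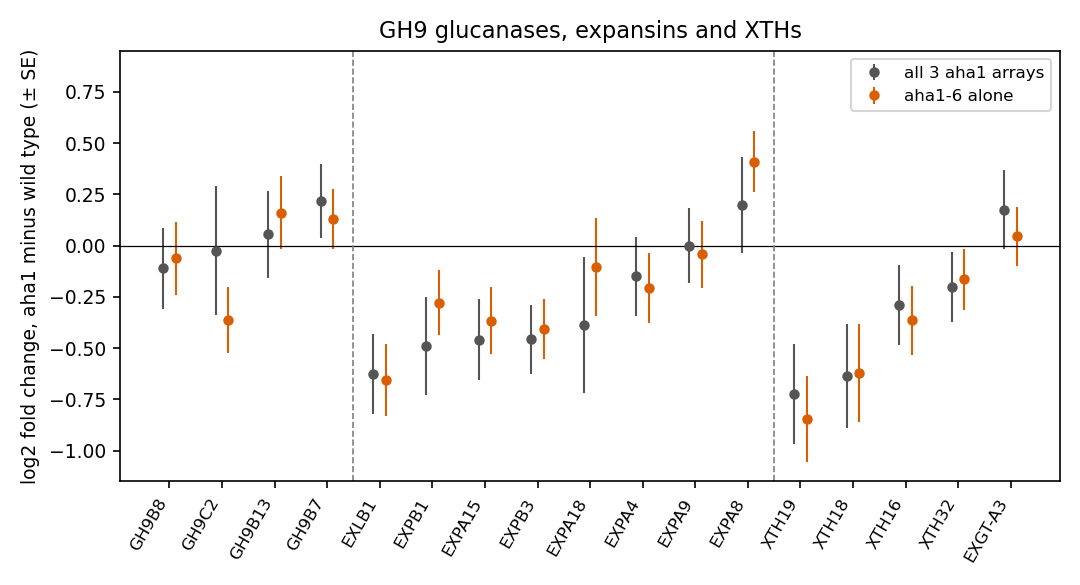
Log2 fold change of aha1 over wild type (vertical axis, bars are SE) for the brighter GH9 glucanases, expansins and XTHs, grey for all 3 aha1 arrays and orange for aha1-6 alone. XTH19 is the lowest at -0.72 and -0.85, and EXPA8 is the one expansin with a positive value in aha1-6 at 0.41.

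The regulators of the plasma membrane pump had small positive values. FERONIA (FER) and PSY1R are receptor kinases that act on the pump at the cell surface, and type 2C protein phosphatases of clade D, here AT3G51370, AT3G17090, AT3G55050 and AT3G12620, remove the phosphate that activates it. All 6 brighter members had positive values with 3 arrays (median 0.26) and with aha1-6 alone (median 0.29), and none passed. PSY1R was at 9.09 and 9.60 in wild type, 9.30 and 10.15 in aha1-6 and 9.94 in aha1-7, with a value of 0.38 in both comparisons (SE 0.21 and 0.19). FER was at 11.37 and 11.79 in wild type, 11.37 and 11.89 in aha1-6 and 12.85 in aha1-7. The aha1-6 arrays of FER covered the wild type range, while aha1-7 lay above it, and the allele difference of 0.998 on the log2 scale passed (SE 0.20; limma, adjusted p = 0.00438).

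Vacuolar proton pumps acidify the vacuole and the endomembranes, and 9 of their subunit genes were bright. In aha1-6 their median was 0.0006, with 5 higher and 4 lower, and none passed. The nuclear photosynthesis genes had a median of 0.01 over 9 genes in aha1-6, and RCA, rubisco activase, was at 15.44 and 15.25 in wild type against 15.53, 15.36 and 15.53 on the aha1 arrays. Chlorophyll synthesis, a list added after PORB had been seen, had a median of 0.0052 over 9 genes in aha1-6. HEMA2, a glutamyl-tRNA reductase at the start of that pathway, was at 8.43 and 8.54 in wild type and at 8.89, 8.95 and 8.91 on the aha1 arrays, a value of 0.45 (SE 0.19) with 3 arrays and 0.43 (SE 0.17) with aha1-6 alone, neither of which passed.

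The 51 brighter chloroplast-encoded genes had a median of -0.10 in aha1-6, with 16 higher and 35 lower, and of 0.05 with 3 arrays, with 29 higher. The sets differed, at 0.0 on the first aha1-6 array and -0.23 on the second. In wild type, 49 of the 51 were higher in the first set than in the second, by a median of 0.85, where all brighter probe sets had a median of -0.02, and in aha1-6 the same median was 0.97. Among them rpoA, which encodes part of the polymerase that transcribes plastid genes, was at 13.56 in the first wild type array and 11.86 in the second. AT5G64120, a class III peroxidase gene, was at 11.48 and 11.78 in wild type and at 12.22, 12.30 and 12.54 on the aha1 arrays, above both wild type and the highest aha2 array at 11.93. Its value of 0.71 (SE 0.19) did not pass (limma, adjusted p = 0.873), and with aha1-6 alone it was 0.63 (SE 0.17; adjusted p = 0.219).

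**Figure D4:**
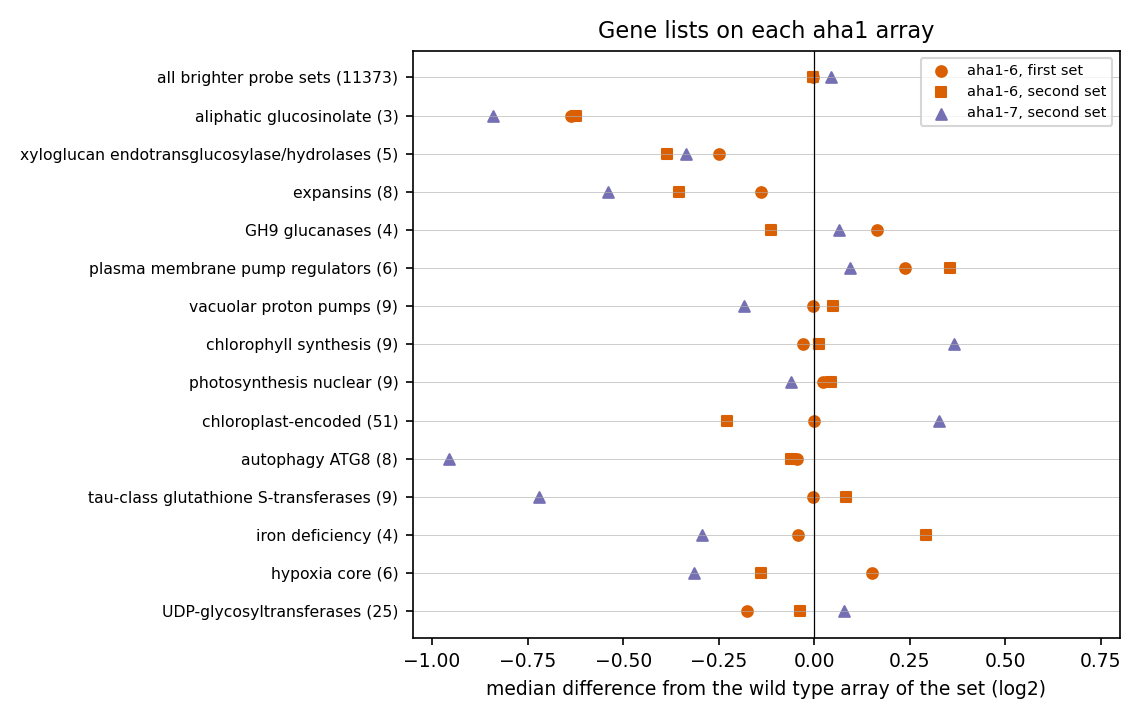
Median log2 difference of each gene list (number of brighter genes in brackets) between each aha1 array and its wild type array, with circles for the first and squares for the second aha1-6 array and triangles for aha1-7. The median of the 3 aliphatic glucosinolate genes, which is the value of GSTU20 alone, lies between -0.84 and -0.62 on all 3 arrays. The medians of ATG8 genes and tau-class glutathione S-transferases are low only on aha1-7, at -0.96 and -0.72.

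The alleles were then compared with each other. At 3240 of 11373 brighter probe sets (28.5%) the aha1-7 array differed from aha1-6 past the threshold (limma), 1344 of them higher (11.8%) and 1896 lower (16.7%). The single aha1-7 array is assumed in this fit to vary like the others, and allele and array cannot be told apart. The difference ran with gene length, taken from start to end in the RefSeq table. In the shortest 10% of genes, with a median length of 996 bp, the median difference was -0.78 and 61.1% were called lower. In the longest 10%, with a median of 5595 bp, it was 0.39 and 24.3% were called higher. The aha1-6 difference from wild type had medians of -0.0076 and 0.0565 in the same shortest and longest genes. Without aha1-6 replicate 2 the count of allele differences was 913, and without aha1-6 replicate 1 it was 2042.

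**Figure D5:**
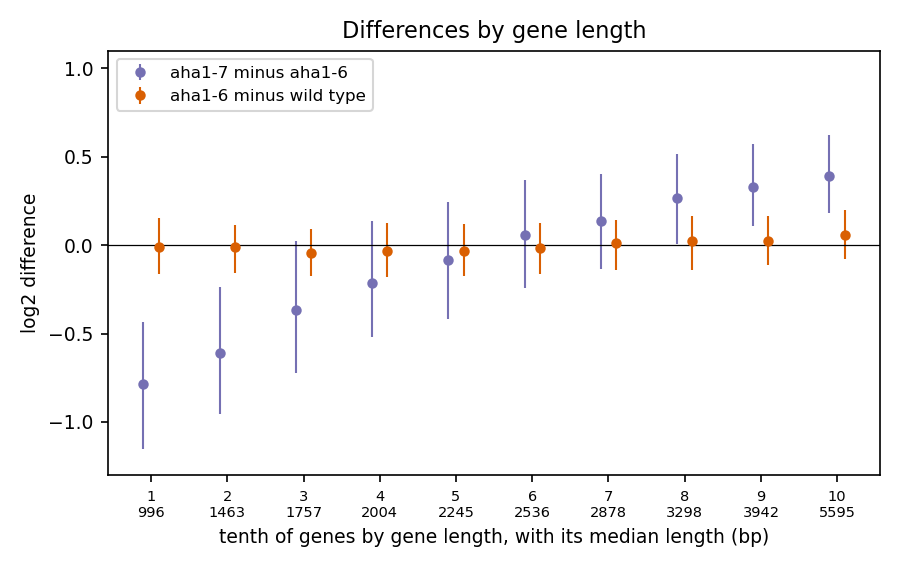
Median log2 difference (vertical axis, bars are the middle 50% of genes) in 10 equal groups of genes ordered by gene length (horizontal axis), purple for aha1-7 minus aha1-6 and orange for aha1-6 minus wild type. The purple points climb from -0.78 to 0.39, and the orange points stay between -0.0451 and 0.0565.

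Families made of short genes did not all go one way on aha1-7. The ATG8 genes encode the ubiquitin-like proteins that coat forming autophagosomes, and 7 of 8 brighter members were called lower in aha1-7 than in aha1-6, while their median in aha1-6 against wild type was -0.01. APG8H, of 1570 bp, was at 11.88 and 11.65 in wild type, 11.83 and 11.70 in aha1-6 and 10.24 in aha1-7. Tau-class glutathione S-transferases, which conjugate glutathione to toxins, had 6 of 9 members called lower and a median of 0.07 in aha1-6. GSTU22, of 1159 bp, was at 11.43 and 11.20 in wild type, 11.48 and 11.29 in aha1-6 and 10.06 in aha1-7. Over all brighter probe sets 16.7% were called lower in aha1-7. The median gene lengths of the ATG8 and tau-class lists were 1680 and 1218 bp. In the groups of 10% of genes with median lengths of 996, 1463 and 1757 bp, 61.1%, 49.5% and 31.8% were called lower.

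The vacuolar pump split by subunit. Its large membrane subunits VHA-A3 and VHA-A2, genes of 5806 and 6041 bp, were called higher in aha1-7, by 0.96 (SE 0.19) and 0.68 (SE 0.23). The shorter genes AT4G26710, AT4G02620 and AT5G55290, of 1608, 2108 and 1708 bp, were called lower, by -1.07, -1.103 and -1.24. VHA-A1, the longest of the 9 at 6278 bp, differed by 0.07 (SE 0.19). Other families of short genes were not low on aha1-7. With a median length of 657 bp, 19 of 51 chloroplast-encoded genes were called higher on aha1-7 and 3 lower, at a median allele difference of 0.50. Of 12 genes listed by ribosomal protein names, with a median of 426 bp, 4 were called higher and 0 lower (limma), at a median of 0.44. That list was not limited to nuclear genes, so it may share members with the chloroplast-encoded genes. The 5 XTHs, with a median of 1513 bp, had a median of 0.25 and no call. The longer GH9 glucanase gene GH9C2, of 4213 bp, was at 12.20 in aha1-7 against 11.04 and 11.22 in aha1-6.

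Tests against aha2 showed where the aha1 values were not shared by the other pump mutant. These tests share the aha1 arrays with the comparison above, and wild type enters them through the estimate of spread and set. With aha1-6 alone, 344 of 11373 brighter probe sets passed (3.02%). Of them 154 were higher than aha2 (1.35%) and 190 lower (1.67%). That split was 220 and 158 with no normalization between arrays and 113 and 263 with median normalization. Deviations from the mean of the other arrays, aha1-7 left out, also ran with gene length on some arrays. Their Spearman correlations with length were -0.01 and 0.28 on the aha1-6 arrays and -0.30, -0.25 and 0.08 on the aha2 arrays. Whether gene length bears on the counts for aha1-6 alone against aha2 was not tested. With all 3 aha1 arrays, 20 passed (0.176%), 3 higher (0.0264%) and 17 lower (0.149%). For aha1-6 alone, BCAT4 was below aha2 by a log2 difference of -0.82 (SE 0.13; limma, adjusted p = 0.0105), AT3G28220 by -1.73 (SE 0.24; adjusted p = 0.00431), and AT5G57760 was above it by 1.48 (SE 0.14; adjusted p = 0.000317). AT2G39400 was above aha2 by 0.88 (SE 0.14; adjusted p = 0.00874). AT2G41730 was not, at 0.12 (SE 0.15; adjusted p = 0.692), and AT5G62280 (0.80) and AT5G43450 (0.53) did not pass, with adjusted p of 0.0718 and 0.0619. The counts against aha2 also rested on single arrays: for aha1-6 alone 17 passed without aha1-6 replicate 2, 24 without aha1-6 replicate 1, 53 without aha2 replicate 1, 106 without either wild type array, 192 without aha2 replicate 2 and 556 without aha2 replicate 3. BCAT4 and AT2G39400 lost their call against aha2 without either aha1-6 array or aha2 replicate 1 (adjusted p from 0.0574 to 0.314), and AT3G28220 without aha1-6 replicate 2 (adjusted p = 0.22).

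At 2 further genes the mutants lay on opposite sides of wild type. AT5G38910 was at 8.57 and 8.35 in wild type, 7.16, 7.75 and 7.53 on the aha1 arrays and 9.81, 10.39 and 9.62 on the aha2 arrays. The difference of aha1 from aha2 at AT5G38910 was -2.46 (SE 0.23; limma, adjusted p = 0.00727) with 3 arrays and -2.45 (SE 0.23; adjusted p = 0.000317) with aha1-6 alone. Its wild type and aha1 arrays all lay below 8.59, the lowest mean level of the brighter probe sets. AT5G38910 was thus among those tested only through its level in aha2, the group it was then compared with. With all probe sets tested, its difference from aha2 did not pass (limma, adjusted p = 0.102 with 3 arrays and 0.192 with aha1-6 alone). AT2G30600 was at 10.76 and 10.48 in wild type, 11.33, 11.40 and 11.76 on the aha1 arrays and 10.25, 10.16 and 10.36 on the aha2 arrays, a difference between the mutants of 2.36-fold (log2 SE 0.18; adjusted p = 0.0361) or 2.15-fold (log2 SE 0.15; adjusted p = 0.00348) with aha1-6 alone. Neither gene passed in aha1 against wild type. With 3 arrays both calls against aha2 were lost on leaving out aha1-6 replicate 1, aha2 replicate 1 or aha2 replicate 2 (adjusted p from 0.0918 to 0.346), and that of AT2G30600 also without either wild type array (0.097) or aha2 replicate 3 (0.2). With aha1-6 alone, AT2G30600 lost its call without aha1-6 replicate 1 (0.0525) or aha1-6 replicate 2 (0.201).

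Genes of the iron deficiency response, which take up iron and regulate its use, were next set against aha2. Of 25 genes on the list, 4 were measured among the brighter ones. Against aha2, 3 of the 4 were lower in aha1-6 alone and 1 with 3 arrays (limma, adjusted p under 0.05). Over all brighter probe sets, 1.67% and 0.149% were lower in the same 2 tests. None of the 4 passed in aha1 against wild type, with medians of -0.07 for 3 arrays and 0.13 for aha1-6 alone. AT3G13610, known as F6'H1, which makes the precursor of iron-mobilising coumarins, was at 10.48 and 10.41 in wild type, 10.13 and 10.30 in aha1-6, 10.49 in aha1-7 and 11.90, 11.95 and 11.89 in aha2. The aha1 arrays were thus near wild type and well below every aha2 array, by a log2 difference of -1.69 (SE 0.14; limma, adjusted p = 0.000225) for aha1-6 alone and -1.61 (SE 0.16; adjusted p = 0.00727) with 3 arrays. For aha1-6 alone the call at AT3G13610 was kept when any 1 array was left out, while with 3 arrays it was lost without aha1-6 replicate 1 or any 1 of the aha2 arrays (adjusted p from 0.0751 to 0.133).

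AT1G47400 was at 10.59 and 10.34 in wild type, 10.87 and 10.82 in aha1-6, 9.15 in aha1-7 and 12.10, 12.24 and 11.56 in aha2. Its aha1-6 arrays were 2.22-fold below aha2 (SE 0.19 on the log2 scale; limma, adjusted p = 0.0103), while the 3-array value of -1.69 (SE 0.38) did not pass (adjusted p = 0.115). AT1G74770 was at 9.34 and 8.95 in wild type, 9.01 and 9.06 in aha1-6, 9.17 in aha1-7 and 10.04, 9.70 and 9.61 in aha2, a difference of aha1-6 from aha2 of -0.79 (SE 0.15; adjusted p = 0.0206) and of all 3 aha1 arrays of -0.70 (SE 0.17; adjusted p = 0.13). Both calls were lost without either aha1-6 array or aha2 replicate 1 (adjusted p from 0.0853 to 0.218), and that of AT1G74770 also without either wild type array (0.0564). PYE, a transcription factor of the same response, was at 9.56 and 9.52 in wild type, 9.81 and 10.27 in aha1-6, 8.86 in aha1-7 and 10.29, 10.43 and 10.25 in aha2. The range of aha1-6 at PYE reached that of aha2, and its difference from aha2 did not pass (adjusted p = 0.365).

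QQS, an Arabidopsis gene that influences starch content, was below the brighter 50%, at percentile 41.4 by mean level. Its deposited signal was 1534 and 1819 in wild type, 169 and 184 in aha1-6, 55.9 in aha1-7 and 173, 58.1 and 188 in aha2. Every mutant array was below both wild type arrays, by a fitted 13.8-fold in aha1 that did not pass over all 22746 probe sets (log2 difference -3.78, SE 0.62; limma, adjusted p = 0.491), nor with aha1-6 alone (-3.32, SE 0.50; adjusted p = 0.362). With trend and robust variance the value of QQS for aha1-6 alone passed (adjusted p = 0.00323), and it passed under none of the other settings run for it.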

How the data were processed

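The authors deposited 1 linear intensity per probe set and array. The submitters' processing notes name Affymetrix Expression Console 1.1, and how probes were summarised is not given in the sources consulted. After log2(value + 1), all 8 arrays were quantile normalized on the full set of 22810 probe sets, and the 64 controls were then left out. The brighter 50% of the other 22746 by mean level (lowest mean 8.59) were fitted with limma 3.58.1 in R 4.3.3 (lmFit, eBayes), with group and set as terms, and p-values were adjusted by Benjamini-Hochberg over 11373 probe sets at 0.05. Residual degrees of freedom were 4 with 8 arrays and 3 without aha1-7 or with alleles as groups. The set was kept as a term: pairs of arrays within 1 set, from different groups, had residuals with a median correlation of 0.399 (8 pairs, 0.0316 to 0.584).

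No pair of arrays shared more than 0.00438% identical signals. The labels do not state separate cultures for the samples of a group. The p-values therefore reflect the spread between samples alone, and that spread may be technical. The number of arrays limits the precision.

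Genes were named from the platform annotation, updated through RefSeq (assembly TAIR10.1): 13513 probe sets had 1 gene (13436 found in RefSeq), 503 several and 8730 none. For a gene with several probe sets in a list, the brightest was used. Genes printed are those past the threshold for aha1-6, up to 15 a direction; the 10 largest a direction with 3 arrays at p under 0.01 and all aha1 arrays deviating one way from wild type within sets; up to 4 per list with the smallest p; and BCAT4 and QQS. The members, the lists and the rule were chosen with earlier results of these data known, including those of list members AT2G41730, AT3G28220, AT5G57760 and AT5G62280, so lists give no independent support. Genes named to show the allele difference, and EXPA8, were picked with their values in view. The fits were tested on simulated data. Alternatives changed the offset, the normalization, the filter, the set term, the arrays and the variance model.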

Additional observations from a re-analysis of the deposited data

Results flagged for a closer look

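At 24 genes and probe sets, most of them described above, the alleles differed from each other (limma, log2 difference of aha1-7 minus aha1-6, adjusted p under 0.05). On the lower side for aha1-7 were 266939_at (-6.18), AT5G57760 (-1.71), AT1G47400 (-1.61), 258434_at (-1.45), APG8H (-1.45), PYE (-1.26), GSTU22 (-1.24), AT5G55290 (-1.24), AT4G02620 (-1.103) and AT4G26710 (-1.07). Smaller differences were measured at GSTU16 (-0.83), AT2G39400 (-0.79), EXPA8 (-0.70), EXPB1 (-0.70), AT2G41730 (-0.61) and AT3G23570 (-0.54). On the higher side were Hsp70-2, a heat shock chaperone gene (0.68), VHA-A2 (0.68), VHA-A3 (0.965), FER (0.998), GH9C2 (1.11), PDC2, a pyruvate decarboxylase of fermentation (1.14), AT3G28220 (1.67) and 254550_at (1.74). With 1 aha1-7 array, allele and array cannot be told apart, and 28.5% of all brighter probe sets passed this test. No group had 4 arrays, so no array was tested as an outlier within its group.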

How the results depend on the processing

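With all 3 aha1 arrays, 0 probe sets passed under the offset of 16, median normalization, no set term, aha2 left out, set as a random block, the gene length trend removed, trend and robust variance, all probe sets and a stricter filter on low levels (limma; 236 to 1139 at an unadjusted p under 0.05); 1 passed with no normalization between arrays and 198 with array weights, and leaving out 1 array gave 0 to 27, the 27 without aha1-7. For aha1-6 alone (27), 7 passed without the set term, 57 with trend and robust variance, 212 with aha2 left out (1 residual degree of freedom) and 0 with all probe sets tested (1617 at an unadjusted p under 0.05); leaving out 1 array gave 0 to 53. The allele difference (3240) was called at 1 with all probe sets tested and ranged from 913 to 3739 with 1 array left out. Against aha2, added after seeing the data, the 3-array count (20) was 0 with all probe sets tested (2417 at an unadjusted p under 0.05), 11 with the stricter filter, 755 with array weights, 37 with set as a random block, 34 with the length trend removed and 0 to 344 with 1 array left out; for aha1-6 alone (344) it was 51 without the set term, 0 with all probe sets (2627), 538 with trend and robust variance and 17 to 556 with 1 array left out. AT2G41730, not called against aha2, turned from -0.08 with 3 arrays to 0.1047 with array weights and 0.2244 with the length trend removed, and ranged from -0.2391 to 0.1214 with 1 array left out. Under these alternatives no other fitted gene difference that was recomputed changed sign (QQS over all probe sets included, also added after seeing the data; genes printed only by level were not recomputed), and the medians of the aliphatic glucosinolate, expansin, XTH and pump regulator lists kept their sign, while medians near 0 (indole glucosinolates, chloroplast-encoded, photosynthesis, chlorophyll, vacuolar pump, GH9) changed sign under some. The causes were not tested. Wild type and aha1-6 have 1 array in each set, so the set term is the block that pairs them: with it, these 4 arrays alone gave the 212 calls above, and without the set term 7 arrays gave 7. Replicate numbers, given in accession order, pair nothing else. The number of arrays limits what can be detected.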
